A study of Mus musculus with 15 samples.

Results

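The genes described here are 36 protein-coding mouse genes of the NRF2, glutathione and iron defence. They were chosen by name from a list, with earlier results of these data known. All 36 were found among the 49585 genes of the count table. They fall into 7 roles: heme breakdown and iron (6 genes), glutathione (10), thioredoxin and peroxiredoxin (7), superoxide and peroxide removal (3), NADPH supply (5), NRF2 control (3) and other NRF2 targets (2). The study asked whether endothelial-like cells made from glioma stem cells resist drugs that block blood vessel growth, and whether the antidepressant sertraline acts on them. RNA was sequenced from 15 libraries in 5 groups of 3. TDECs (tumor derived endothelial cells) were differentiated from the mouse glioma stem cell line 005 in EGM-2, an endothelial growth medium, at 1% oxygen. Day 2 TDECs were collected on day 2 of that culture. The untreated TDECs carry no day in their labels. They are taken as day 5 cells, since the study describes sequencing TDECs on days 2 and 5. The treated cells had also been differentiated for 5 days. Sertraline TDECs received 5 µM sertraline and were collected 24 h later, so they may be older than the untreated TDECs by that time, and whether the untreated cells received a vehicle is not given in the sources used here. The 005 cells, the starting line, were kept in stem cell medium free of serum, with no oxygen level given. MBMECs are purchased mouse brain microvascular endothelial cells grown in another medium, with no oxygen level given. All 5 groups carry the strain label C57BL/6. The 005 line and everything made from it is a single line, and the labels do not say that the libraries of a group came from separate cultures. The p-values therefore measure the spread between these libraries. The study calls the 3 replicates of TDECs before and after sertraline biological, without saying how the cultures were separated. For the other groups the spread may be technical.

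NRF2, the product of Nfe2l2, is a transcription factor that KEAP1 marks for destruction in unstressed cells. When oxidants or electrophiles modify KEAP1, NRF2 accumulates, pairs with a small MAF protein such as MAFG and binds antioxidant response elements in genes that make glutathione, regenerate thioredoxin, supply NADPH and store iron. Heme oxygenase opens the heme ring and frees its iron, ferritin stores that iron in a form that cannot feed radical chemistry, and the lipid peroxidase GPX4 uses glutathione to stop the membrane damage that iron drives.

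The libraries held 11283680 to 17093061 counts. Between libraries of a group the mean chi-square per gene ran from 2.15 to 4.94 for 9 of the 15 pairs, so no pair was as close as sampling noise alone would make it. Replicate 3 of the day 2 TDECs and replicate 3 of the 005 cells stood apart, at 11.1 to 11.7 against the other libraries of their group, and so did replicate 2 of the sertraline TDECs, at 6.97 and 7.27. The 15 endothelial marker genes summed to 50.5 to 57.9 CPM (counts scaled to a common library size by the trimmed mean of M values over all libraries) in TDECs against 9849 to 10051 CPM in MBMECs, where all 15 were higher, and against 10.2 to 14.9 CPM in 005 cells. Tie1 and Cldn5 were at 0 in TDECs, so these markers do not bear out the endothelial label at the level of MBMECs. Flt1 was 24.2-fold and Kdr 3.29-fold higher in TDECs than in 005 cells, and Flt1 averaged 41.5 CPM in TDECs against 172 CPM in MBMECs. Kdr averaged 4.04 CPM in TDECs against 598 CPM in MBMECs. Flt1 and Kdr were the only 2 past 2-fold of the 7 endothelial markers tested between TDECs and 005 cells. By adjusted p alone, 2 of the 7 were higher and 2 lower, with a median log2 fold change of -0.24. The 10 neural and glioma stem cell markers summed to 1545 to 1605 CPM in TDECs and 2492 to 2758 CPM in 005 cells. Past 2-fold, 4 of the 10 were lower in TDECs and 1 was higher, Prom1, at 112 CPM in TDECs against 25.8 CPM in 005 cells. The 12 macrophage and microglia markers summed to 36.4 to 41.4 CPM in TDECs against 15.5 to 18.6 CPM in 005 cells, with Adgre1, C1qa and C1qb at 0 in TDECs. Within that list Cd68 averaged 28.1 CPM in TDECs against 4.63 CPM in 005 cells, and Cd14 averaged 0.698 CPM in TDECs against 3.86 CPM in 005 cells. Globin genes were at 0 in all groups. The 8 astrocyte markers summed to 926 to 1002 CPM in TDECs against 580.0 to 585 CPM in 005 cells. Much of that sum was Slc1a3, which averaged 725 CPM in TDECs against 499 CPM in 005 cells. Of the 8, 3 were higher in TDECs past 2-fold and 1 was lower, S100b, at a low level (0.540 against 1.25 CPM). The 10 fibroblast and mural markers summed to 29.4 to 35.6 CPM in TDECs against 45.3 to 54.6 CPM in 005 cells. Of the 5 tested from the last list, 2 were higher and 2 lower in TDECs past 2-fold. Pdgfrb averaged 4.05 CPM in TDECs against 0.266 CPM in 005 cells, and Tagln 5.55 against 1.64 CPM. Pdgfra averaged 19.8 CPM in TDECs against 39.8 CPM in 005 cells, and Col3a1 0.282 against 7.22 CPM. Mitochondrially encoded genes took 2.36 ± 0.299% of counts in 005 cells, 2.21 ± 0.132% in day 2 TDECs, 3.52 ± 0.067% in TDECs, 2.56 ± 0.0812% in sertraline TDECs and 1.53 ± 0.107% in MBMECs (SD, n = 3 each). The part of these differences in the results that follow was not tested, and in bulk RNA fewer cells of a type and less RNA per cell cannot be told apart.

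Promoter windows of 250 bases before to 50 after the start site, from RefSeq on GRCm38.p6, were at hand for 30 of the 36 genes. The core of the antioxidant response element, TGACNNNGC, read on both strands, occurred in 11 of the 30 (36.67%: G6pdx, Gclm, Mafg, Me1, Mgst1, Nfe2l2, Pgd, Prdx1, Sod1, Srxn1 and Txnrd1), beside 13.99% of the 27025 genes with such a window. The full word TGACTCAGC, which contains the AP-1 word TGACTCA, occurred in 2 of the 30 (6.67%: Me1 and Prdx1), beside 0.5% of all genes. TGACTCA itself was in 4 of the 30 (13.33%: Me1, Osgin1, Prdx1 and Srxn1), beside 5.95% of all genes. The 4 stretches below were chosen after the expression values were known, because all carry the core before the start site and the 4 genes moved in different ways between TDECs and 005 cells. The capitals mark the core, in all but Nfe2l2 as its reverse complement.
Gclm: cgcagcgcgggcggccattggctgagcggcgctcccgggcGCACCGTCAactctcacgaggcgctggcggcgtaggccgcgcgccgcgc
Prdx1: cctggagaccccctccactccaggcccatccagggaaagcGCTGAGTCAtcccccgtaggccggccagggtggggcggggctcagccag
Txnrd1: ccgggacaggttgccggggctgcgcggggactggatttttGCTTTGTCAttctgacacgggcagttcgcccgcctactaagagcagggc
Nfe2l2: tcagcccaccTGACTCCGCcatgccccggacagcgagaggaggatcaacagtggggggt
The Gclm stretch lies at chr3:122245383-122245471 on the plus strand and the Prdx1 stretch at chr4:116685426-116685514 on the plus strand, and neither overlaps a gene of GENCODE M21. The Txnrd1 stretch, at chr10:82859074-82859162 on the plus strand, lies inside the span of Txnrd1 in that annotation but in none of its exons. The Nfe2l2 stretch, at chr2:75704855-75704913 on the minus strand, lies in an exon of the neighbouring gene E030042O20Rik. The first capital base stood 134 bases before the start site in Gclm, 133 in Prdx1, 92 in Txnrd1 and 240 in Nfe2l2. A match is a description of letters and not a binding site. Of these 4 genes, Nfe2l2 rose in TDECs over 005 cells, Gclm was higher by less than 2-fold, Prdx1 was lower by less than 2-fold and Txnrd1 did not pass the test, with the values given below.

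The 36 genes together took 0.652 to 0.721% of all counts in 005 cells, 0.695 to 0.715% in day 2 TDECs and 1.683 to 1.716% in TDECs. In sertraline TDECs they took 1.579 to 1.797%, and in MBMECs 1.127 to 1.177%. The ferritin chains took a large share. Fth1, the heavy chain that oxidizes iron as it enters the shell, made up 57.1 ± 0.365% of the counts of the 36 genes in TDECs against 29.3 ± 1.58% in 005 cells and 20.01 ± 0.227% in MBMECs (SD, n = 3 each). Levels were compared between genes only per kilobase of exon in GENCODE M21, and only for the 31 of the 36 genes whose span in the count table is the same there, which leaves out Fth1, Txnrd1, Sod1, Sod2 and Tkt. Among those 31, the highest levels in TDECs were those of Ftl1 at 1019 ± 23.0 CPM per kilobase, Hmox1 at 853 ± 11.1, Gpx4 at 242 ± 2.96 and Gstm1 at 228 ± 1.27 (SD, n = 3). In 005 cells Hmox1, at 31.2 ± 1.33 CPM per kilobase, lay within its spread of Gclc at 30.9 ± 1.604 and Txn2 at 30.5 ± 0.638. Its spread overlapped that of G6pdx at 32.7 ± 1.12. There Gpx4 at 95.6 ± 11.6, Gstm1 at 92.3 ± 15.9 and Gpx1 at 88.0 ± 2.41 CPM per kilobase were also neighbours that did not differ beyond their spread. Slc40a1 was the lowest of the 31 in all groups but MBMECs.

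**Figure D1:**
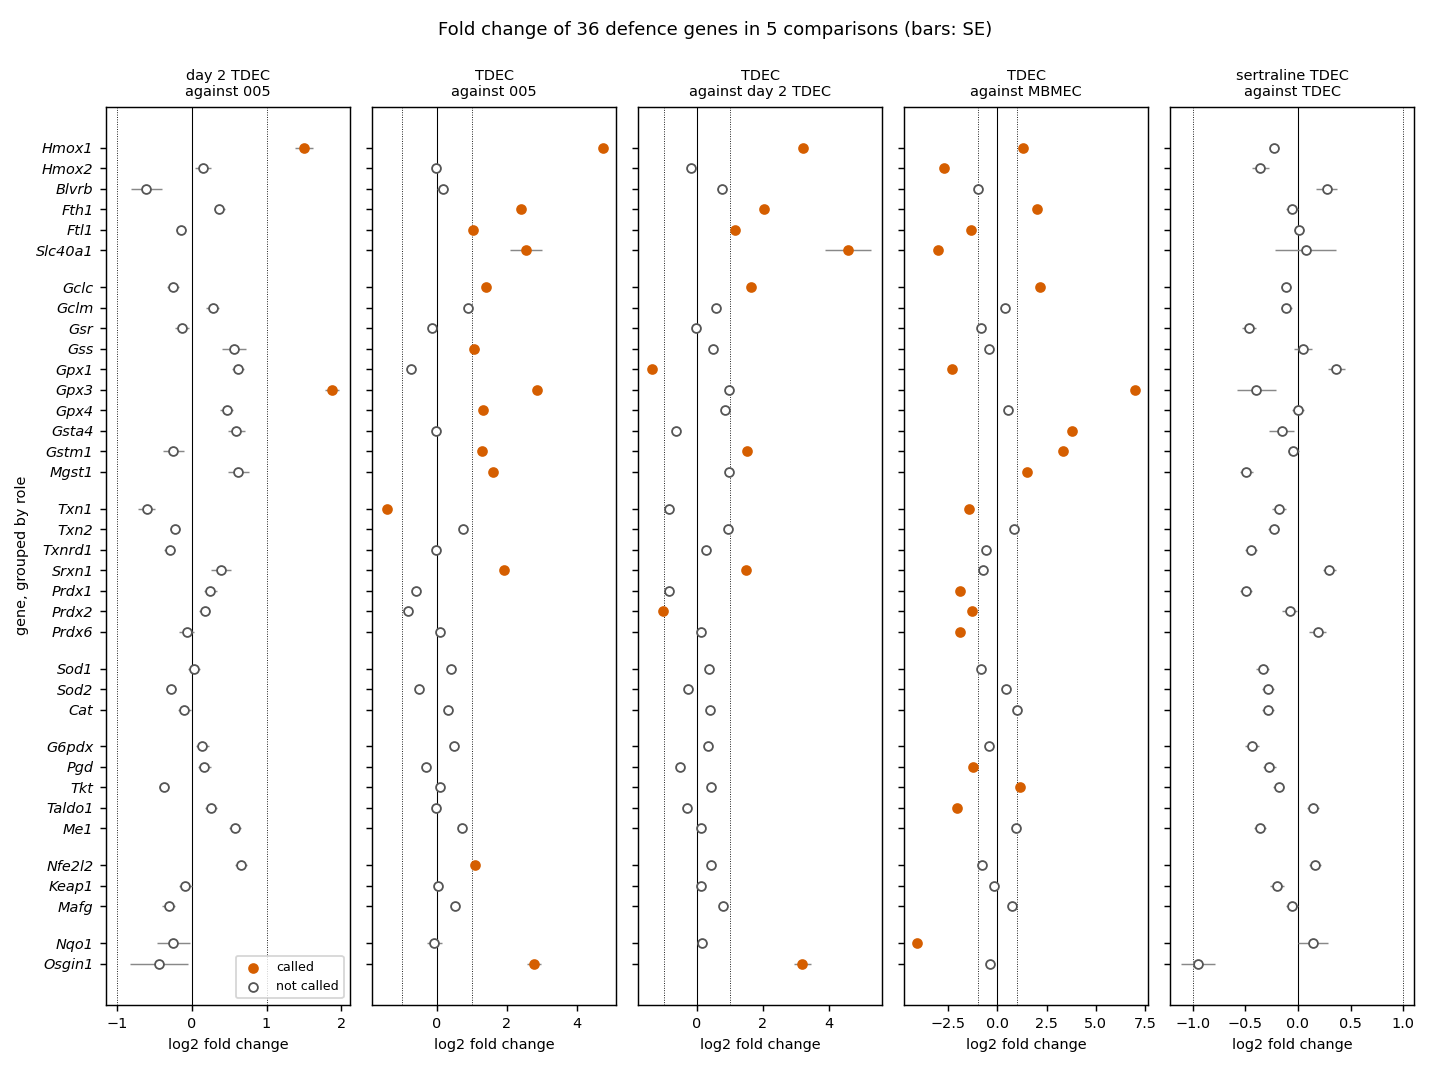
Log2 fold change (x axis, each panel with its own range) of the 36 genes (y axis, grouped by role) in the 5 comparisons, with SE bars; filled points passed adjusted p under 0.05 with a change above 2-fold, and dotted lines mark that fold. 14 points are filled in TDECs against 005 cells, 19 in TDECs against MBMECs and 0 in sertraline TDECs against TDECs, and Slc40a1 has no point in day 2 TDECs against 005 cells, where it was not tested.

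In TDECs, 4 of the 6 heme and iron genes, 6 of the 10 glutathione genes, Srxn1, Nfe2l2 and Osgin1 rose over 005 cells, and Txn1 fell. Hmox1 was 27.0-fold higher, Fth1 5.34-fold and the secreted peroxidase gene Gpx3 7.33-fold, while the quinone reductase gene Nqo1 and the thioredoxin reductase gene Txnrd1 did not pass the test. A gene is said to rise or fall here where edgeR's quasi-likelihood test gave a Benjamini-Hochberg adjusted p under 0.05 and a change above 2-fold. Between TDECs and 005 cells, 13 of the 36 rose and 1 fell, beside 13.1% of 15648 genes that rose and 10.4% that fell. By adjusted p alone, 20 were higher and 6 lower, beside 32.4% and 33% of all genes. Since the 36 were chosen with earlier results of these data known, such shares are a description. The median log2 fold change was 0.45 over the 36 genes and -0.01 over all genes tested. Differentiation, medium and possibly oxygen differ together between 005 cells and TDECs, on day 2 as well, and cannot be told apart.

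Heme breakdown and iron gave 4 of the 13 that rose. Hmox1, the inducible heme oxygenase, stood at 1507, 1471 and 1503 CPM in TDECs against 52.3, 54.9 and 56.9 CPM in 005 cells (log2 fold change 4.76 ± 0.06 (SE), adjusted p = 3.5e-13). All 3 TDEC libraries lay far above all 3 libraries of 005 cells. Hmox2, the constitutive heme oxygenase, had 27.9, 27.6 and 28.6 CPM in TDECs against 26.1, 26.9 and 30.9 CPM in 005 cells, and the groups overlapped (log2 fold change -0.01 ± 0.09 (SE), adjusted p = 0.92). The count of Hmox1 per count of Hmox2 was 53.2 ± 0.770 in TDECs against 1.96 ± 0.106 in 005 cells (SD, n = 3 each). Fth1 stood at 10044, 9985 and 9861 CPM in TDECs against 1746, 1729.5 and 2059 CPM in 005 cells (log2 fold change 2.42 ± 0.07 (SE), adjusted p = 3.3e-11). Ftl1, the light chain of ferritin, rose less, to 1396, 1334 and 1367 CPM in TDECs against 640.1, 636 and 714 CPM in 005 cells (log2 fold change 1.03 ± 0.06 (SE), adjusted p = 1.6e-08). Both ferritin genes thus had every TDEC library above every library of 005 cells, and the heavy chain moved further. Fth1 counts per Ftl1 count were 7.20, 7.48 and 7.21 in TDECs against 2.73, 2.72 and 2.88 in 005 cells, a log2 difference of 1.39 (exact permutation test, two-sided, p = 0.1, the smallest that 3 against 3 allows, and 0.12 after Benjamini-Hochberg adjustment over 30 such tests). Slc40a1, which encodes the iron exporter ferroportin, was near the floor, with 52 counts in the 3 TDEC libraries together against 10 in the 3 of 005 cells, a ratio of CPM of 6.15 with a 95% counting interval of 3.09 to 13.6 (log2 fold change 2.56 ± 0.45 (SE), adjusted p = 0.00032). Blvrb, a biliverdin reductase, did not pass the test at 0.17 on the log2 scale (adjusted p = 0.39).

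Ftl1 has a limit of counting. The row Gm10252 lies on the opposite strand, overlaps it by 416 bases and held 0.858 ± 0.00604 counts per Ftl1 count in TDECs and 0.856 ± 0.00352 in 005 cells (SD, n = 3 each). Whether the counting used strand is not given in the sources used here, so reads of the pair cannot be told apart. With the counts of both rows summed, the Fth1 ratio was 3.93 ± 0.0922 in TDECs against 1.50 ± 0.0471 in 005 cells. The opposite-strand neighbours of Hmox2 (Cdip1), Gss (Acss2), G6pdx (Ikbkg), Prdx2 (Junb and Rnaseh2a), Gclm (Gm17494), Me1 (A330041J22Rik) and Keap1 (Gm16754) carry the same limit. So do the same-strand overlaps of Mafg with Sirt7 (124 bases), Txnrd1 with Eid3 (1305 bases) and Gclm with Gm6061 (492 bases). Eid3 held 233 counts over all libraries and Gm6061 333, against 83184 for Txnrd1 and 23807 for Gclm. The row Ftl1-ps1 held 2396 counts against 315168 for Ftl1. Overlapping rows with fewer counts than these are not listed.

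**Figure D2:**
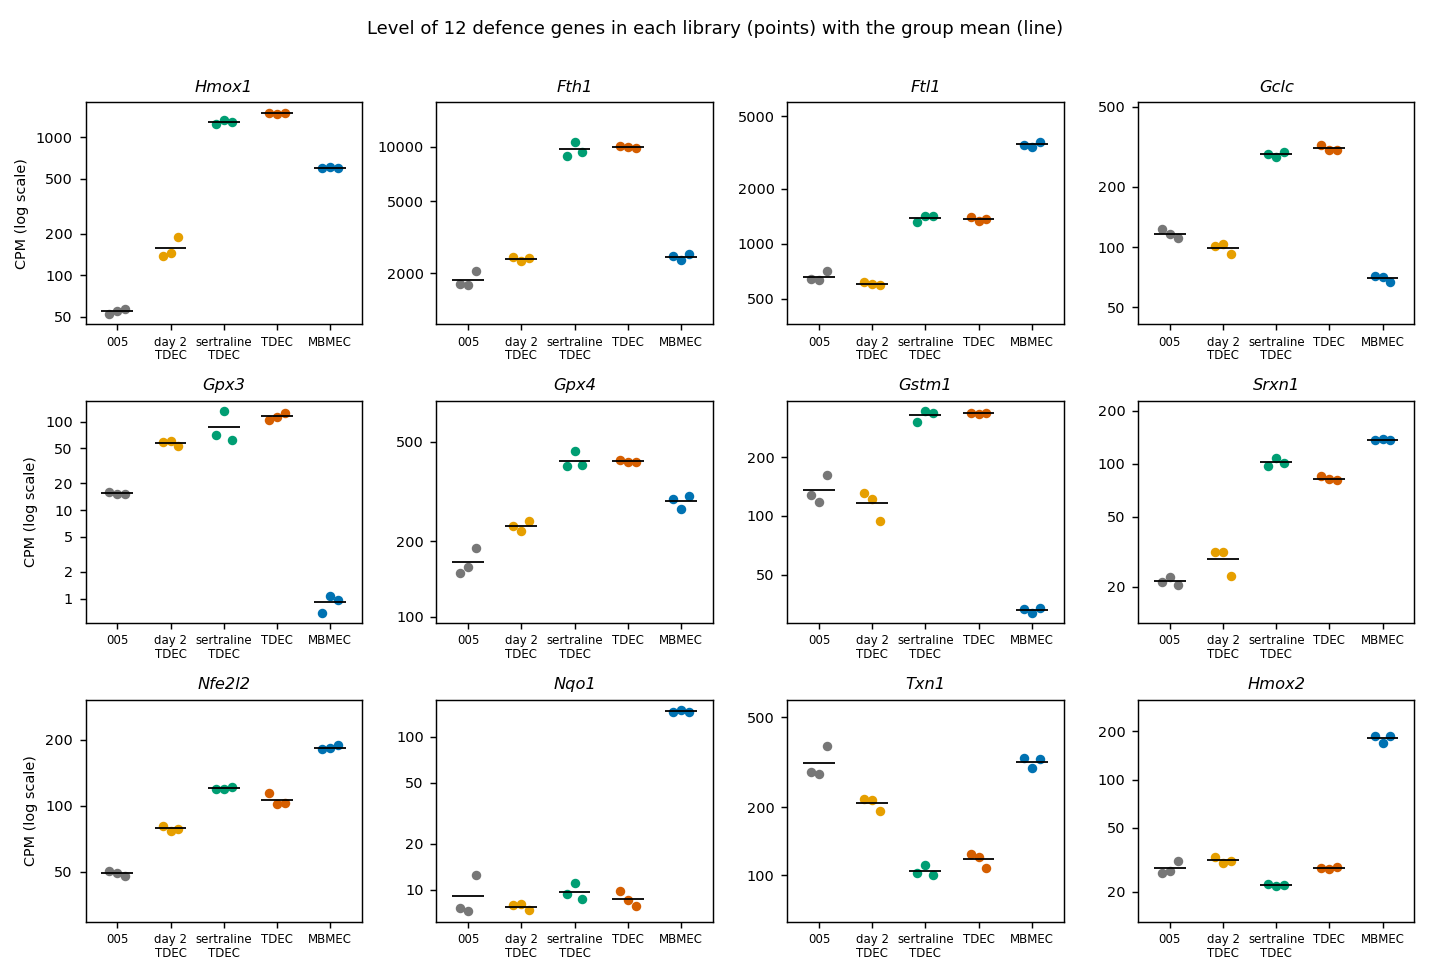
CPM (y axis, log scale, each panel with its own range) of 12 genes in the 15 libraries (points) of the 5 groups (x axis), with a line at the group mean. Hmox1 lies between 1471 and 1507 CPM in TDECs and between 52.3 and 56.9 CPM in 005 cells, and Nqo1 lies between 7.78 and 9.84 CPM in TDECs and between 147 and 149.9 CPM in MBMECs.

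Of the 10 glutathione genes, 6 rose between TDECs and 005 cells. Gclc, the catalytic subunit of the ligase that starts glutathione synthesis, had 324, 306 and 306 CPM in TDECs against 122, 116 and 110.3 CPM in 005 cells (log2 fold change 1.41 ± 0.06 (SE), adjusted p = 1.2e-09). Its modifier subunit Gclm was higher by less than 2-fold, at 157, 155 and 146 CPM in TDECs against 85.6, 87.5 and 72.1 CPM in 005 cells (log2 fold change 0.88 ± 0.08 (SE), adjusted p = 7e-07). The catalytic subunit thus moved further than its partner, with 2.05 ± 0.0674 Gclc counts per Gclm count in TDECs against 1.43 ± 0.0998 in 005 cells (exact permutation test, two-sided, p = 0.1, adjusted p = 0.12). Gss, which completes glutathione, rose (log2 fold change 1.07 ± 0.13, adjusted p = 1.9e-05), and Gsr, which reduces it again after use, did not pass the test (-0.15, adjusted p = 0.13). Among the peroxidases, Gpx3 had 104, 113 and 126 CPM in TDECs against 15.81, 15.35 and 15.04 CPM in 005 cells (log2 fold change 2.87 ± 0.09 (SE), adjusted p = 6e-11). Gpx4, which repairs lipid peroxides in membranes, had 423, 413 and 416 CPM in TDECs against 149.8, 157 and 187 CPM in 005 cells (log2 fold change 1.33 ± 0.08). Gpx1, the common cytosolic peroxidase, went the other way by less than 2-fold, at 83.4, 74.7 and 73.6 CPM in TDECs against 124, 131 and 125 CPM in 005 cells (-0.73, adjusted p = 1.2e-06). Of the transferases, which attach glutathione to electrophiles, the microsomal Mgst1 had 74.6, 75.7 and 70.0 CPM in TDECs against 23.9, 25.4 and 21.7 CPM in 005 cells (log2 fold change 1.62 ± 0.08 (SE), adjusted p = 4.3e-09). Gstm1 rose by 1.29 on the log2 scale, and Gsta4, which acts on products of lipid peroxidation, did not pass the test (-0.01, adjusted p = 0.93).

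The thioredoxin and peroxiredoxin genes moved in both directions. Srxn1, which restores overoxidized peroxiredoxins, had 85.6, 81.6 and 80.6 CPM in TDECs against 21.3, 22.9 and 20.6 CPM in 005 cells (log2 fold change 1.92 ± 0.07 (SE), adjusted p = 4.9e-10). Txn1, the cytosolic thioredoxin, was the only one of the 36 that fell, with 124, 120.5 and 108 CPM in TDECs against 285, 281 and 372 CPM in 005 cells (log2 fold change -1.43 ± 0.11 (SE), adjusted p = 1.6e-07), while its mitochondrial paralog Txn2 was higher by less than 2-fold (0.74, adjusted p = 2.4e-07). No TDEC library of Txn1 reached any library of 005 cells. Prdx1 and Prdx2, the cytosolic peroxiredoxins, were lower by less than 2-fold (-0.59 and -0.83), and Prdx6 did not pass the test (0.08, adjusted p = 0.27). Txnrd1 had 412, 398 and 398 CPM in TDECs against 410.2, 425 and 370.0 CPM in 005 cells, and the groups overlapped (-0.01, adjusted p = 0.88).

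Superoxide and peroxide removal and NADPH supply held no gene past the 2-fold rule in this comparison. The cytosolic superoxide dismutase gene Sod1 was higher in TDECs by 0.41 on the log2 scale, catalase (Cat) by 0.32, and the mitochondrial dismutase gene Sod2 gave -0.52, all with adjusted p under the threshold. Of the NADPH genes, G6pdx, which opens the pentose phosphate route, gave 0.49, the malic enzyme gene Me1 0.73 and Pgd, the next oxidative step, -0.32. Tkt and Taldo1, of the branch that needs no oxidation, did not pass the test (0.08 and -0.03).

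Nfe2l2 itself rose, with 114, 102 and 103 CPM in TDECs against 50.2, 49.6 and 47.7 CPM in 005 cells (log2 fold change 1.10 ± 0.07 (SE), adjusted p = 3.5e-08). Keap1 did not pass the test (0.05, adjusted p = 0.61), and Mafg was higher by less than 2-fold (0.52, adjusted p = 4.9e-06). Nqo1, in many tissues a standard readout of NRF2, had 9.84, 8.60 and 7.78 CPM in TDECs against 7.58, 7.20 and 12.5 CPM in 005 cells (log2 fold change -0.08 ± 0.21 (SE), adjusted p = 0.77), and the groups overlapped. Osgin1, an oxidative stress induced growth inhibitor, rose from a low level, with 320 counts in the TDEC libraries together against 54 in those of 005 cells (log2 fold change 2.79 ± 0.21, adjusted p = 1.8e-07). With plain library totals in place of the scaling, which moved the median of all genes by -0.13, 10 of the 36 rose, and Ftl1, Gss and Nfe2l2 no longer passed the 2-fold rule. Without replicate 1 or replicate 2 of the 005 cells, 11 rose and Ftl1 and Gss did not.

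At the earlier stage fewer genes changed past 2-fold, among all genes as well as among these. In day 2 TDECs against 005 cells, 2 of the 35 genes tested rose and 0 fell by edgeR's test, beside 5.35% of 15344 genes that rose and 4.48% that fell. At an unadjusted p under 0.05, 15 were higher and 8 lower, of which 0 of the lower were past 2-fold, and DESeq2 gave 2 and 0. By adjusted p alone, 14 were higher and 8 lower, beside 18.8% and 20.2% of all genes. The median log2 fold change was 0.14 over the 35 genes and -0.02 over all genes tested. Gpx3 had 58.5, 60.1 and 53.3 CPM in day 2 TDECs against 15.81, 15.35 and 15.04 CPM in 005 cells (log2 fold change 1.88 ± 0.10 (SE), adjusted p = 2.1e-07). Hmox1 had 137, 144 and 189.6 CPM in day 2 TDECs against 52.3, 54.9 and 56.9 CPM in 005 cells (log2 fold change 1.50 ± 0.12 (SE), adjusted p = 4.2e-06). Both were above all libraries of 005 cells, and replicate 3, the library that stood apart, was the highest of the day 2 TDECs for Hmox1 and the lowest for Gpx3. With replicate 3 of both groups left out, an alternative added after seeing the data, the counts were again 2 and 0. Of the ferritin chains, Fth1 was higher by less than 2-fold (log2 fold change 0.37 ± 0.08, adjusted p = 0.0033) and Ftl1 did not pass the test (-0.15 ± 0.07, adjusted p = 0.12). Also by less than 2-fold, Gclm (0.28), Gss (0.56), Gpx1 (0.62), Gpx4 (0.46), Gsta4 (0.60), Mgst1 (0.62), Srxn1 (0.39), Prdx1 (0.25), Taldo1 (0.26), Me1 (0.58) and Nfe2l2 (0.66) were higher, and Blvrb (-0.61), Gclc (-0.26), Txn1 (-0.61), Txn2 (-0.23), Txnrd1 (-0.30), Sod2 (-0.28), Tkt (-0.37) and Mafg (-0.31) were lower. Hmox2, Ftl1, Gsr, Gstm1, Prdx2, Prdx6, Sod1, Cat, G6pdx, Pgd, Keap1, Nqo1 and Osgin1 did not pass the test, and Slc40a1, with 2 counts in day 2 TDECs and 10 in 005 cells, was not tested.

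Between TDECs and day 2 TDECs, 8 of the 36 rose and 2 fell by edgeR's test, beside 11.1% of 15508 genes that rose and 9.35% that fell. By adjusted p alone, 22 were higher and 8 lower, beside 31% and 31.9% of all genes. The median log2 fold change was 0.41 over the 36 genes and 0.0022 over all genes tested. The comparisons of TDECs with 005 cells, day 2 TDECs, MBMECs and sertraline TDECs share the untreated TDEC libraries. Fth1 had 10044, 9985 and 9861 CPM in TDECs against 2458, 2332 and 2443 CPM in day 2 TDECs (log2 fold change 2.03 ± 0.04 (SE), adjusted p = 2.5e-11). The inducible heme oxygenase gene Hmox1 stood at 1507, 1471 and 1503 CPM in TDECs against 137, 144 and 189.6 CPM in day 2 TDECs (log2 fold change 3.24 ± 0.11 (SE), adjusted p = 7.1e-10). Gclc stood at 324, 306 and 306 CPM in TDECs against 101, 103 and 92.0 CPM in day 2 TDECs (log2 fold change 1.65 ± 0.06 (SE), adjusted p = 2.2e-09). For these 3 genes the libraries of the groups did not overlap. Ftl1 had 1396, 1334 and 1367 CPM in TDECs against 619, 603 and 599 CPM in day 2 TDECs (log2 fold change 1.16 ± 0.04 (SE), adjusted p = 2.6e-09). Gstm1 had 338, 334 and 336 CPM in TDECs against 131, 122 and 94.6 CPM in day 2 TDECs (log2 fold change 1.52 ± 0.10 (SE), adjusted p = 1.9e-07), and Srxn1 had 85.6, 81.6 and 80.6 CPM against 31.5, 31.5 and 23.1 CPM (log2 fold change 1.51 ± 0.11 (SE), adjusted p = 4e-07). Osgin1 also rose (3.21 ± 0.25), and Slc40a1 had 52 counts in TDECs against 2 in day 2 TDECs, a ratio of CPM of 29.0 with a 95% counting interval of 7.65 to 246. Against that direction, Gpx1 fell to 83.4, 74.7 and 73.6 CPM in TDECs, against 194, 184 and 214 CPM in day 2 TDECs (log2 fold change -1.37 ± 0.08 (SE), adjusted p = 5.4e-08). Prdx2 fell to 120.0, 114 and 120.0 CPM in TDECs, against 248, 232 and 233 CPM in day 2 TDECs (log2 fold change -1.02 ± 0.06 (SE), adjusted p = 5.5e-08), and without replicate 2 of the TDECs or replicate 1 of the day 2 TDECs it no longer passed the 2-fold rule, leaving 1 gene that fell. Blvrb (0.76), Gclm (0.59), Gss (0.49), Gpx3 (0.98), Gpx4 (0.85), Mgst1 (0.98), Txn2 (0.95), Txnrd1 (0.27), Sod1 (0.37), Cat (0.41), G6pdx (0.33), Tkt (0.43), Nfe2l2 (0.42) and Mafg (0.81) were higher by less than 2-fold and Gsta4 (-0.63), Txn1 (-0.84), Prdx1 (-0.85), Sod2 (-0.26), Pgd (-0.50) and Taldo1 (-0.31) were lower by less than 2-fold. Hmox2, Gsr, Prdx6, Me1, Keap1 and Nqo1 did not pass the test.

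**Figure D3:**
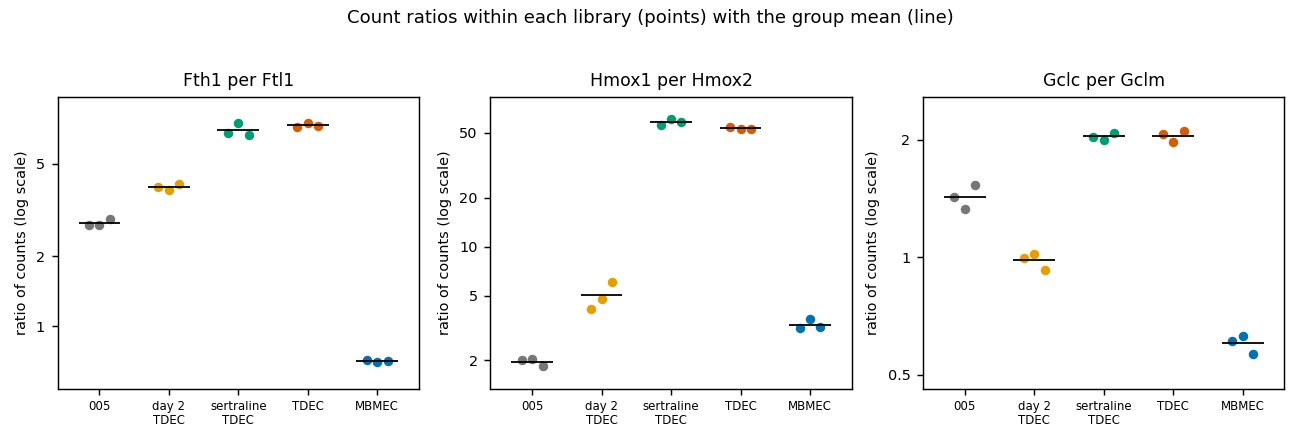
Ratio of raw counts within each library (points; y axis, log scale) for the ferritin chains, the heme oxygenases and the subunits of glutamate-cysteine ligase in the 5 groups (x axis), with a line at the group mean. Fth1 per Ftl1 averages 7.30 in TDECs and 0.707 in MBMECs, and Gclc per Gclm averages 0.983 in day 2 TDECs, 2.05 in TDECs and 0.603 in MBMECs.

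Set against MBMECs, the TDECs had more RNA of Gstm1, Gsta4, Mgst1, Gclc, Gpx3, Hmox1 and Fth1, and less of Nqo1, Hmox2, Ftl1, Prdx1, Prdx2 and Prdx6. Between TDECs and MBMECs, 8 of the 36 were higher and 11 lower by edgeR's test past 2-fold, beside 28.1% of 16135 genes that were higher and 20.8% that were lower. By adjusted p alone, 15 were higher and 21 lower, beside 45.7% and 40.2% of all genes. The median log2 fold change was -0.42 over the 36 genes and 0.09 over all genes tested. Cell origin, medium and possibly oxygen differ between these groups together and cannot be told apart, nor can a batch, since the titles of the MBMEC libraries lack a prefix that those of the TDECs carry.

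Glutathione genes gave 5 of the 8 that were higher in TDECs. Gstm1 had 338, 334 and 336 CPM in TDECs against 33.2, 31.9 and 33.8 CPM in MBMECs (log2 fold change 3.35 ± 0.05 (SE), adjusted p = 5.5e-29). Gpx3 had 104, 113 and 126 CPM in TDECs against 0.693, 1.07 and 0.965 CPM in MBMECs (log2 fold change 6.97 ± 0.13 (SE), adjusted p = 2e-27), and Gclc had 324, 306 and 306 CPM against 71.6, 71.3 and 67.1 CPM (log2 fold change 2.16 ± 0.05 (SE), adjusted p = 6.1e-25). Gsta4 (3.81) and Mgst1 (1.50) were higher too, and Gpx1 was lower, with 83.4, 74.7 and 73.6 CPM in TDECs against 384, 373 and 397 CPM in MBMECs (log2 fold change -2.31 ± 0.05 (SE), adjusted p = 3.2e-25). Outside glutathione, Hmox1 had 1507, 1471 and 1503 CPM in TDECs against 593, 605 and 599 CPM in MBMECs (log2 fold change 1.32 ± 0.04 (SE), adjusted p = 4.6e-22), and Tkt had 569.5, 553 and 558 CPM against 248, 254 and 267 CPM (log2 fold change 1.13 ± 0.04 (SE), adjusted p = 1.9e-19). The ferritin chains parted. Fth1 had 10044, 9985 and 9861 CPM in TDECs against 2491, 2384 and 2554 CPM in MBMECs (log2 fold change 2.01 ± 0.04 (SE), adjusted p = 6.5e-27), whereas Ftl1 had 1396, 1334 and 1367 CPM in TDECs against 3490.4, 3405 and 3614 CPM in MBMECs (log2 fold change -1.36 ± 0.04 (SE), adjusted p = 1.7e-22). Fth1 counts per Ftl1 count were 7.30 ± 0.161 in TDECs against 0.707 ± 0.00673 in MBMECs, and 3.93 ± 0.0922 against 0.393 ± 0.00369 with the counts of Gm10252 added to Ftl1 (SD, n = 3 each).

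The lowest values relative to MBMECs were those of Nqo1, with 9.84, 8.60 and 7.78 CPM in TDECs against 147, 149.9 and 147 CPM in MBMECs (log2 fold change -4.08 ± 0.08 (SE), adjusted p = 2.5e-27). Hmox2 had 27.9, 27.6 and 28.6 CPM in TDECs against 188, 169 and 186 CPM in MBMECs (log2 fold change -2.69 ± 0.06 (SE), adjusted p = 3.2e-25), so the 2 heme oxygenases lay on opposite sides. Taldo1 had 83.6, 78.6 and 85.0 CPM in TDECs against 342, 336 and 336 CPM in MBMECs (log2 fold change -2.03 ± 0.05 (SE), adjusted p = 1.6e-24). All 3 peroxiredoxins were lower. Prdx6 had 141, 126 and 138 CPM in TDECs against 496, 506 and 518 CPM in MBMECs (log2 fold change -1.91 ± 0.05 (SE), adjusted p = 6.8e-24), and Prdx1 had 151, 146 and 165 CPM against 590.2, 558 and 597 CPM (log2 fold change -1.91 ± 0.05 (SE), adjusted p = 1e-23). Prdx2 gave -1.29, Txn1 -1.44, Pgd -1.22 and Slc40a1 -3.01 on the log2 scale, the last with 52 counts in TDECs against 547 in MBMECs. Nfe2l2 was lower in TDECs by less than 2-fold (-0.79, adjusted p = 3.3e-14), as were Txnrd1 (-0.57), Srxn1 (-0.73), Sod1 (-0.81), Gsr (-0.85), Gss (-0.43), G6pdx (-0.41), Blvrb (-0.97), Osgin1 (-0.38) and Keap1 (-0.16). Higher in TDECs by less than 2-fold were Cat (0.98), Me1 (0.92), Txn2 (0.86), Mafg (0.77), Gpx4 (0.53), Sod2 (0.45) and Gclm (0.39).

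After sertraline no gene of the 36 moved past 2-fold, and most of those that passed adjusted p were slightly lower, among them Hmox1, Txnrd1, Prdx1 and Gsr. Between sertraline TDECs and TDECs, 0 of the 36 rose and 0 fell by edgeR's test with the 2-fold rule, beside 1.82% of 15540 genes that rose and 3.26% that fell. DESeq2 also gave 0 and 0. At an unadjusted p under 0.05, 6 were higher and 19 lower. At adjusted p alone, 4 were higher and 17 lower, beside 17.6% and 17.7% of all genes, all by less than 2-fold. The median log2 fold change was -0.17 over the 36 genes and -0.00025 over all genes tested. The titles of the treated libraries lack a prefix that the untreated ones carry, so a batch, a possible difference in age and the drug cannot be told apart. The summed endothelial markers were 28.7 to 35.1 CPM in sertraline TDECs against 50.5 to 57.9 CPM in TDECs, with Flt1 averaging 20.4 CPM in sertraline TDECs against 41.5 CPM in TDECs and Kdr 5.27 CPM against 4.04 CPM. The stem cell markers summed to 1308 to 1354 CPM in sertraline TDECs against 1545 to 1605 CPM in TDECs, the astrocyte markers to 1072 to 1121 CPM against 926 to 1002 CPM, and the fibroblast and mural markers to 38.5 to 41.0 CPM against 29.4 to 35.6 CPM. The macrophage markers, at 25.8 to 35.6 CPM in sertraline TDECs, lay below the 36.4 to 41.4 CPM in TDECs. Within that list Cd68 averaged 17.8 CPM in sertraline TDECs against 28.1 CPM in TDECs. Cd14 went the other way, at 2.97 CPM against 0.698 CPM, and was the only 1 of the 4 tested that passed the 2-fold rule. The part of these markers in the results was not tested. Hmox1 had 1246, 1325 and 1291 CPM in sertraline TDECs against 1507, 1471 and 1503 CPM in TDECs (log2 fold change -0.22 ± 0.04 (SE), adjusted p = 0.001). Fth1 had 8913, 10649 and 9361 CPM in sertraline TDECs against 10044, 9985 and 9861 CPM in TDECs, and the groups overlapped (log2 fold change -0.06 ± 0.05 (SE), adjusted p = 0.45). The lower genes included enzymes that regenerate thioredoxin, glutathione and NADPH. Txnrd1 had 301, 279.6 and 313 CPM in sertraline TDECs against 412, 398 and 398 CPM in TDECs (log2 fold change -0.44 ± 0.05 (SE), adjusted p = 9.9e-06), and Prdx1 had 107, 116 and 107 CPM against 151, 146 and 165 CPM (log2 fold change -0.49 ± 0.06 (SE), adjusted p = 1.3e-05). Gsr (-0.46), G6pdx (-0.43), Mgst1 (-0.49), Me1 (-0.36), Hmox2 (-0.36), Sod1 (-0.34), Sod2 (-0.28), Cat (-0.28), Pgd (-0.27), Txn2 (-0.23), Keap1 (-0.20), Tkt (-0.18) and Txn1 (-0.18) were lower by less than 2-fold. Osgin1 came nearest to the rule, with 5.50, 4.63 and 4.15 CPM in sertraline TDECs against 9.20, 9.69 and 8.52 CPM in TDECs (log2 fold change -0.95 ± 0.16 (SE), adjusted p = 0.00024), and without replicate 1 of the sertraline TDECs it passed, giving 1 gene that fell. The 4 higher genes were Gpx1 (0.36), Srxn1 (0.30), Blvrb (0.27) and Nfe2l2 (0.16). Gpx3 had 70.0, 131 and 61.9 CPM in sertraline TDECs, where replicate 2, the library that stood apart, was the highest, against 104, 113 and 126 CPM in TDECs (log2 fold change -0.39 ± 0.18 (SE), adjusted p = 0.11). Fth1, Ftl1, Slc40a1, Gclc, Gclm, Gss, Gpx3, Gpx4, Gsta4, Gstm1, Prdx2, Prdx6, Taldo1, Mafg and Nqo1 did not pass the test.

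Other genes of these pathways, 113 in 6 lists also chosen with earlier results known, were counted beside the 36. Of the cystine and glutathione supply genes tested between TDECs and 005 cells, 5 of 15 rose and 1 fell. They included both chains of the cystine importer, Slc7a11 (log2 fold change 2.66 ± 0.09 by edgeR, adjusted p = 1e-10) and Slc3a2 (2.22 ± 0.08), the glutathione-degrading enzyme gene Chac1 (2.91 ± 0.12) and Cth, which makes cysteine (1.80 ± 0.09), while Chac2 fell (-1.29 ± 0.17). Supply and breakdown genes were thus both among those that rose. Of the iron uptake, storage control and release genes, 4 of 15 rose, namely the ferroxidase gene Cp (5.09 ± 0.09), Trf (2.67 ± 0.12), the transferrin receptor gene Tfrc (1.16 ± 0.13) and Slc39a14 (1.16 ± 0.07). Of the other NRF2 pathway genes, 9 of 23 rose and 2 fell. By smallest adjusted p, those that rose began with Aox1 (3.19 ± 0.07), Sqstm1 (2.31 ± 0.05), Nfe2l1 (1.54 ± 0.05) and Abcc4 (1.74 ± 0.07), and those that fell were Ugdh (-1.19 ± 0.08) and Akr1b3 (-1.31 ± 0.10). Of the other peroxidases, transferases and peroxiredoxins, 5 of 18 rose, Gsto1 (1.33 ± 0.08) and Gstp1 (1.20 ± 0.17) among them. Of the heme synthesis and transport genes, 2 of 11 rose, the heme transporter gene Slc48a1 (1.04 ± 0.08) and Hpx (3.09 ± 0.33), and of the ferroptosis lipid genes 1 of 9 rose, Gch1 (3.57 ± 0.11). All these shares stand beside the 13.1% of all genes that rose and 10.4% that fell. The median log2 fold changes of the lists ran from -0.17 (ferroptosis lipid genes) to 0.80 (other NRF2 pathway genes).

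In the same lists between sertraline TDECs and TDECs, 1 of 18 peroxidase and transferase genes tested rose, Gstm2 (1.63 ± 0.26). Of 11 heme genes 1 fell, Hpx (-1.28 ± 0.26), and of 23 NRF2 genes 1 fell, Nfe2l3 (-1.06 ± 0.33). Of 15 iron genes, 15 supply genes and 9 ferroptosis lipid genes, 0 rose and 0 fell. These stand beside 1.82% of all genes that rose and 3.26% that fell. Between TDECs and MBMECs the cystine and glutathione supply list had 7 of 15 higher and 2 lower, with Cbs (5.32), Slc3a2 (2.53) and Slc7a11 (2.55) among the higher. In the other lists of that comparison, 2 of 11 heme genes were higher and 3 lower, 5 of 16 iron genes higher, 7 of 21 peroxidase and transferase genes higher and 7 lower, 9 of 23 NRF2 genes higher and 5 lower, and 1 of 10 ferroptosis lipid genes higher and 1 lower, beside 28.1% and 20.8% of all genes. On day 2 against 005 cells, 3 of 15 iron genes had already risen, Cp (3.66), Trf (2.63) and Tfrc (1.06), as had Slc7a11 (1.08) and Gch1 (1.03). In the other lists on day 2, 4 of 17 peroxidase and transferase genes and 3 of 23 NRF2 genes rose, beside 5.35% of all genes. Between TDECs and day 2 TDECs, 4 of 15 supply genes rose and 1 fell, 2 of 15 iron genes rose, 8 of 23 NRF2 genes rose and 1 fell, 2 of 18 peroxidase and transferase genes rose and 2 fell, 2 of 11 heme genes rose and 1 of 9 ferroptosis lipid genes rose, beside 11.1% and 9.35% of all genes.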

How the data were processed

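Poly(A) RNA was sequenced from 15 libraries, 3 in each of 5 groups, with a directional kit. The authors trimmed reads with Trimmomatic 0.38 after bcl2fastq 2.19, aligned them to mm10 with HISAT2 2.1.0 and deposited raw counts per gene from featureCounts 1.6.3. The strand setting, the treatment of reads with several alignments and the annotation release are not given in the sources used here. Library totals were 11283680 to 17093061 counts, and rows with low counts were removed within each comparison by filterByExpr with a min.count of 10, which is a level per library set against library size and not a total over a row. Each of the 5 comparisons was fitted on its own 6 libraries with edgeR 4.0.16 (R 4.3.3), TMM scaling and the quasi-likelihood test, with Benjamini-Hochberg adjustment over all genes tested. A call needed an adjusted p under 0.05 and an absolute log2 fold change above 1. CPM values were scaled by TMM over all 15 libraries, so their ratios can differ slightly from fitted folds. SE is the fold change divided by the square root of F. Ratios of counts were compared with two-sided exact permutation tests, 30 in all. Intervals cover counting error only.

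All 36 genes were named. In each comparison the 6 called genes with the smallest adjusted p in each direction were given in every library, and of each other pathway list up to 4 called genes per direction were eligible to be named. Further genes shown in every library, and the 4 promoter stretches, were chosen after their values were seen. So were Kdr, Cd14, Prom1, Slc1a3, S100b, Pdgfrb, Tagln, Pdgfra and Col3a1 among the markers. The 36 genes and the lists were chosen with earlier results of these data known. Alternatives were DESeq2 1.42.0, other scalings, a looser filter, a fit of all libraries, a replicate block and leaving out each replicate. Same-numbered libraries did not deviate together, so the numbers were not used as pairs. Genes of the iron list that were lower are not reported here.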

Additional observations from a re-analysis of the deposited data

How the results depend on the processing

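Most log2 fold changes of the 36 genes kept their direction and their side of the threshold under the alternatives, in 484 of 490 refits for day 2 TDECs against 005 cells, 448 of 468 for TDECs against 005 cells, 461 of 468 against day 2 TDECs, 464 of 468 against MBMECs and 453 of 468 for sertraline TDECs against TDECs. With adjusted p alone as the rule, the counts higher and lower were 14 and 8 on day 2, 20 and 6 in TDECs against 005 cells, 22 and 8 against day 2 TDECs, 15 and 21 against MBMECs, and 4 and 17 after sertraline. Leaving out each library in turn gave 2 to 2 higher and 0 to 0 lower on day 2, 11 to 13 higher and 1 to 1 lower against 005 cells, 8 to 10 and 1 to 2 against day 2 TDECs, 8 to 9 and 11 to 12 against MBMECs, and 0 to 0 and 0 to 1 after sertraline.

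The values that changed sign were small. In day 2 TDECs against 005 cells, Sod1 was -0.043 on the log2 scale with plain library totals, and over the fits that left out libraries Prdx6 ran from -0.18 to 0.0055, Sod1 from -0.023 to 0.092, Nqo1 from -0.38 to 0.11 and Gstm1 from -0.34 to 0.048. In TDECs against 005 cells, plain library totals gave Prdx6 -0.048, Tkt -0.055 and Keap1 -0.085, and a fit of all 15 libraries gave Hmox2 0.012, Gsta4 0.012 and Txnrd1 0.013. With libraries left out, Gsta4 ran from -0.092 to 0.047, Keap1 from -0.013 to 0.086, Taldo1 from -0.065 to 0.0099, Txnrd1 from -0.071 to 0.023, Hmox2 from -0.069 to 0.064 and Nqo1 from -0.22 to 0.22. In sertraline TDECs against TDECs, plain library totals gave Fth1 0.014, Gpx4 0.071, Gstm1 0.029 and Mafg 0.017, the looser filter gave Gpx4 0.011, and adding Gm10252 gave Ftl1 -0.013. With libraries left out, Fth1 ran from -0.13 to 0.0019, Slc40a1 from -0.00047 to 0.19, Gpx4 from -0.064 to 0.040, Gstm1 from -0.074 to 0.014 and Ftl1 from -0.0035 to 0.051. The cause was not tested.

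Same-numbered libraries correlated at -0.079 to 0.023 in their deviations, and not every library correlated best with its own number. With the replicate block the counts higher and lower were 2 and 0, 13 and 1, 8 and 2, 8 and 11, and 0 and 0, in the order above, and the block moved all genes called to 785 and 617 on day 2, from 821 and 687 without it. Replicate 3 left out of both groups and Ftl1 summed with Gm10252 were chosen after seeing the data. Depth limits Slc40a1, with 2 to 65 counts a group outside MBMECs.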
